A study of Homo sapiens with 2 samples.

Results

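The translation initiation and elongation factors are the proteins that place the ribosome on an mRNA, find the start codon and then drive the ribosome along the message. They were chosen by gene symbol, as symbols that begin with EIF1 to EIF6 or with EEF1 or EEF2. The eIF2 kinases, the eIF4E-binding proteins, EEF1E1, pseudogenes and antisense transcripts were left out. The rule found 63 genes of 50868, and 61 of them had at least 10 reads over both libraries, as had 15384 genes in all. EIF4E1B and the read-through gene EEF1E1-BLOC1S5 had 0 reads in both libraries.

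RNA-seq was performed on MOLM-13, a human acute myeloid leukemia cell line with a KMT2A::MLLT3 fusion, grown in medium with fetal bovine serum and antibiotics. One library came from cells with the empty vector (Vector) and the other from cells given a lentiviral UNC5B construct (OE-UNC5B). Per the methods this construct has a CMV promoter, a FLAG tag, mCherry and a puromycin resistance gene, the cells were selected with puromycin, and no cloning of single cells is described. The question was how expression differed after UNC5B was introduced. With 1 library per group, no difference below has a replicate check, and the intervals cover counting error only.

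The libraries held 13715566 reads (Vector) and 15637137 reads (OE-UNC5B). The targeted gene UNC5B, on chromosome 10 of GRCh38 from 71212570 to 71302864, had 0 reads in both. The second library is therefore called the library labelled OE-UNC5B, and every direction rests on the labels. Of 10 myeloid leukemia markers, 9 had at least 247 reads in both libraries, and KIT had 2 reads and 1 read. The markers summed to 5535 CPM in Vector, where CPM are reads scaled to the effective library size, and to 3096 CPM in the other library, with LYZ at 51742 and 23700 reads and MPO at 3363 and 1553. Of the other myeloid markers MEIS1, HOXA9, FLT3 and CD33 went the other way, with log2 fold changes of 0.90, 0.47, 0.42 and 0.14. The markers of other cell types summed to at most 2.30 CPM for the epithelial, endothelial, fibroblast and erythroid lists, and to 5.11 and 6.54 CPM for the lymphoid list, mostly CD3D with 67 and 102 reads. EPCAM, KRT8, CDH1, CDH5, KDR, DCN, MS4A1 and HBA1 had 0 reads in both, whereas COL1A1 had 21 and 9 and HBB 14 and 8. The part of the marker difference in the values below was not tested.

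Initiation begins when eIF2, a GTPase of 3 subunits, carries the initiator tRNA to the small ribosomal subunit, and eIF2B exchanges its GDP for GTP afterwards. eIF3 is the scaffold of this preinitiation complex, while eIF4F (the cap-binding protein eIF4E, the scaffold eIF4G and the helicase eIF4A, helped by eIF4B and eIF4H) recruits the mRNA. During elongation eEF1A delivers aminoacyl-tRNA, the eEF1B subunits recharge it, eEF2 moves the ribosome by a codon, and eIF5A, which carries the modified residue hypusine, helps at slow peptide bonds. The mRNAs of many of these factors start with a cytosine and a run of pyrimidines, the 5′ terminal oligopyrimidine (TOP) motif, through which mTOR and LARP1 control their translation.

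The bases around the start are shown for the 5 factors on a list of TOP mRNAs in which such a run was found, and of the 6 listed factors with a sequence only EEF1G had none. They include EEF2 and EEF1A1, which had the most reads, and EIF4B, which had the largest increase. They were taken from RefSeq promoter windows (GRCh38.p14), which reach from 250 bases before to 50 bases after an annotated start and were found for 50 of the 63 factors. Capitals mark a C followed by at least 5 bases that are each C or T, beginning within 15 bases of the start.
EEF1A1, chr6:73521013-73521042, minus strand: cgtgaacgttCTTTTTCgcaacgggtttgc
EEF2, chr19:3985444-3985473, minus strand: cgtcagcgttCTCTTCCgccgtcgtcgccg
EEF1B2, chr2:206159885-206159914, plus strand: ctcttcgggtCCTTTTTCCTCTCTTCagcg
EIF3F, chr11:7987323-7987352, plus strand: tccgcttccgCCTCCTTCTTTCTCgacaag
EIF4B, chr12:53006456-53006485, plus strand: cttttgcgttCTCTTTCCCTCTCCCaacat
In EEF1A1, EEF2 and EEF1B2 the first capital is the annotated first base of the mRNA. In EIF3F the run begins 4 bases before the annotated start, and in EIF4B it begins 10 bases after it. Such a run was found in 5 of the 7 windows of listed TOP mRNAs, in 21 of the 61 windows of the other factors and in 27.7% of the 14470 windows of all genes with at least 10 reads.

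Of the 61 factors, 1 was called higher and 7 were called lower in the library labelled OE-UNC5B. A call needed a change of 1.5-fold or more and a 95% interval of the reads that did not hold equality. Among all 15384 genes tested, 9.16% were called higher and 8.73% were called lower, so that the factors had a share of 1.64% in the first direction and 11.5% in the second. The 61 include enzymes that modify elongation factors, EIF4A3 and EIF1AD, which are related by name, and the noncoding EIF3J-DT. Without these, 1 of 52 genes was called higher and 4 were called lower. Among the 9438 genes with at least 10 CPM, which are closer in depth to the factors, 8.05% and 7.41% were called. At 2-fold, 1 factor was higher and 2 were lower, against 3.82% and 3.69% of all genes. With the limit set at a ratio 25% above equality, 8 were higher and 15 lower, against 17.4% and 17.7% of all genes. The called factors were EIF4B (higher) and EIF2S3B, EEF1AKMT3, EEF1A2, EIF5A, EEF1AKMT1, EIF5AL1 and EIF4A3 (lower). Just inside the limit was EIF4A3 (-0.61 on the log2 scale), which was no longer called when the reads were scaled to library totals or with DESeq2 size factors. With the deposited FPKM and 1 added EIF4A3 (-0.53), EIF5AL1 (-0.57) and EEF1AKMT1 (-0.55) were not called. Just outside it were EIF1AD (-0.53) and EIF1 (0.50).

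The median log2 fold change of the 61 factors was -0.11, against -0.0048 over all genes. The value was above 0 for 24 factors and below 0 for 37, while 49.5% of all genes were above 0. The interval lay above 0 for 21 factors and below 0 for 31, which is 34.4% and 50.8% of the factors, against 25.2% and 26.2% of all genes and 33.0% and 34.6% of the genes with at least 10 CPM. The factors were also sequenced more deeply, with a median of 1976 and 2224 reads against 269.5 and 316 for all genes, and deeper counts give narrower intervals. The summed reads of the factors went the other way from their median, from 378605 to 485006 reads (log2 fold change 0.12), and EEF2 alone held 103275 and 153630 of these reads.

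**Figure D1:**
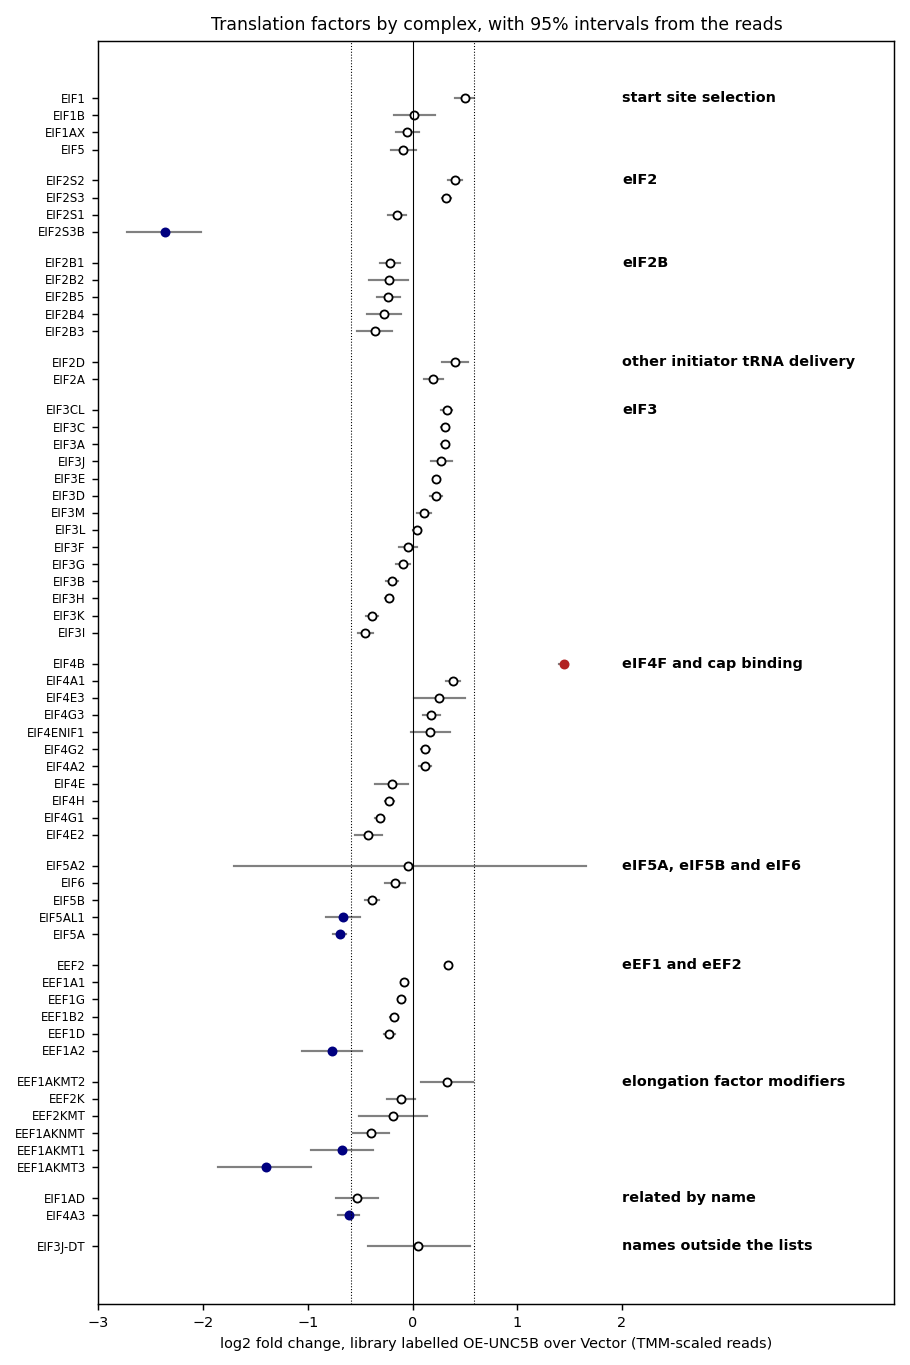
Log2 fold change of each tested factor (x axis, library labelled OE-UNC5B over Vector, TMM-scaled reads), grouped by complex, with 95% intervals from the reads as bars and the 1.5-fold limits as dotted lines. Filled red marks the factor called higher, EIF4B, and filled blue the 7 called lower; EIF1AY is counted in the text and not drawn.

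EIF4B was the factor with the largest increase. This RNA-binding cofactor of the eIF4A helicase lies on chromosome 12 from 53006158 to 53042209 on the plus strand. Its reads went from 5362 in Vector to 17156 in the library labelled OE-UNC5B, or from 397 to 1079 CPM, a log2 fold change of 1.44 (95% interval 1.40 to 1.49). EIF4H, the related cofactor of the same helicase, had 7493 and 7571 reads (log2 fold change -0.22). The ratio of EIF4B reads to EIF4H reads went from 0.716 to 2.27, a difference of 1.66 on the log2 scale (95% interval 1.60 to 1.73), which does not depend on how the libraries are scaled. The 100 bases before the annotated start of EIF4B (chr12:53006356-53006455, plus strand), shown because no other factor was called higher, hold the E-box CACGTG, in capitals, 22 bases before the start.
EIF4B upstream: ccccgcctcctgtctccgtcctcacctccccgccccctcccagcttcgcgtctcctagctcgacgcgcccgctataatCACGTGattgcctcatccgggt
The E-box reads the same on both strands. It was found in 11 of the 68 windows of the factors (16.2%) and in 9.48% of the windows of all genes. Besides EIF4B, the factors with it were EIF4A3, called lower, and EIF4G1, EIF4E, EIF4H, EIF2B3, EIF1B, EIF3F, EEF2K, EIF3K and EIF5A2, which were not called. The element TGATGNAAN, at which C/EBP and ATF4 proteins bind, was searched on both strands and found in 1 window of the factors, that of EIF4E3 (1.47%), and in 2.00% of all windows. The cAMP response element TGACGTCA was found in 1 window of the factors, that of EEF2 (1.47%), and in 2.81% of all windows.

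The other parts of eIF4F were not called, against 9.16% of all genes called higher and 8.73% called lower. Their values lay on both sides of 0. The scaffold EIF4G1 had 9288 and 8792 reads (log2 fold change -0.32, 95% interval -0.36 to -0.27). Its paralog EIF4G3 had 2168 and 2889 reads, and EIF4G2, which lacks the eIF4E-binding part, had 7629 and 9764. The ratio of EIF4G1 to EIF4G3 reads went from 4.28 to 3.04, a difference of -0.49 on the log2 scale (95% interval -0.58 to -0.40). The cap-binding protein EIF4E had 643 and 660 reads (-0.20), and the cap-binding relative EIF4E2, known as a repressor of translation, had 1073 and 943 (-0.42). EIF4E3 and EIF4ENIF1, the eIF4E transporter, had log2 fold changes of 0.25 and 0.17, and the interval of EIF4ENIF1 reached from -0.02 to 0.36. Over the 11 tested genes of this group the median was 0.12.

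**Figure D2:**
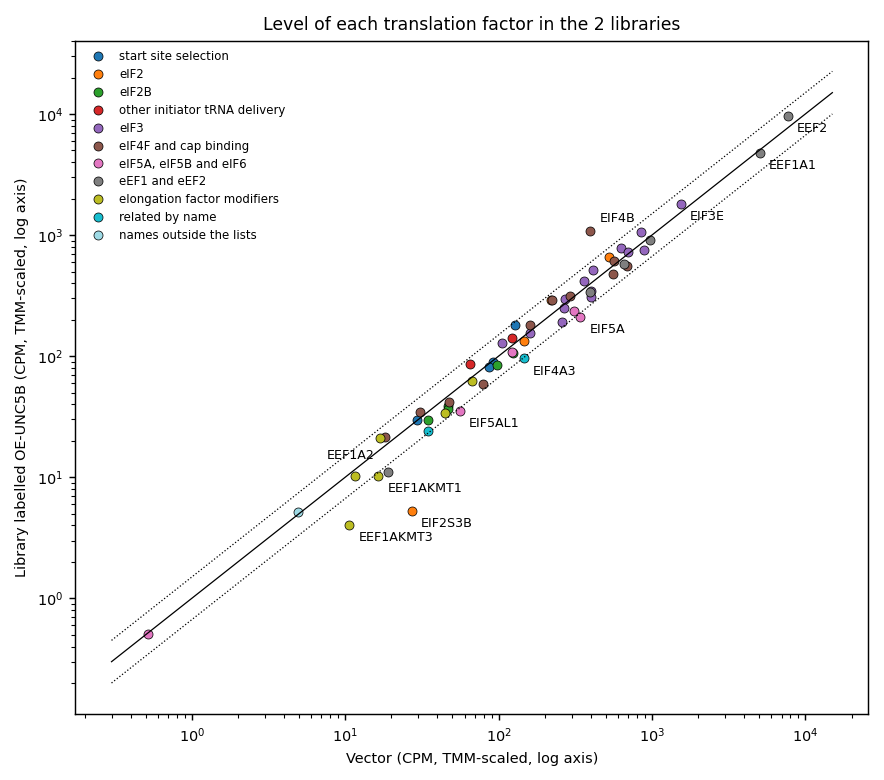
Level of each tested factor in Vector (x axis) and in the library labelled OE-UNC5B (y axis), both in TMM-scaled CPM on log axes, coloured by complex, with 1 library per axis. The solid line marks equal levels and the dotted lines 1.5-fold; EIF4B lies above the upper dotted line at 397 and 1079 CPM, the 7 factors called lower lie below the lower one, and EIF1AY is not drawn.

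The 3 subunits of eIF2 did not have the same value, and here and below the reads in Vector are given first. EIF2S1, the alpha subunit that stress kinases phosphorylate, had 1991 and 2116 reads (log2 fold change -0.15, 95% interval -0.24 to -0.06). EIF2S2, the beta subunit, had 2976 and 4647 reads (0.41, interval 0.34 to 0.47). EIF2S3, the gamma subunit that binds GTP and the tRNA, had 7056 and 10384 reads (0.32, interval 0.28 to 0.37). Neither reached 1.5-fold. Relative to EIF2S1, EIF2S2 was higher by 0.56 on the log2 scale (interval 0.44 to 0.67) and EIF2S3 by 0.47 (interval 0.37 to 0.57). EIF2S3B, a retained copy of EIF2S3 on chromosome 12 from 10505602 to 10523135, went from 368 to 84 reads, which is -2.36 on the log2 scale (interval -2.73 to -2.02). The copy shares 25.2% of its 50-base sequences with EIF2S3, so its value is uncertain. It held 4.96% and 0.802% of the reads of both genes, so their sum (7424 and 10468 reads, 0.26) follows EIF2S3 and does not bear on the value of the copy.

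All 5 subunits of eIF2B, the exchange factor of eIF2, had values below 0, and none reached 1.5-fold. Of all genes 9.16% were called higher and 8.73% lower at that limit. EIF2B3 had the lowest value, with 633 and 580 reads (log2 fold change -0.36, 95% interval -0.53 to -0.20), and EIF2B1 the highest, with 1667 and 1692 reads (-0.21, interval -0.31 to -0.12). EIF2B2, EIF2B4 and EIF2B5 were at -0.23, -0.28 and -0.23. Every one of the 5 intervals lay below 0 (4 with library totals, where that of EIF2B2 reached 0.0070), against 26.2% of all genes, 34.6% of the genes with at least 10 CPM and 50.8% of the factors, and these subunits had the narrowest spread of any complex with at least 3 tested genes (SD over genes 0.06). EIF2A and EIF2D, which can bring the initiator tRNA without eIF2, had values above 0, with 1646 and 2224 reads (0.20) and with 881 and 1372 reads (0.40).

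Among the factors of start codon selection, EIF1 had the highest value. EIF1, which keeps the scanning ribosome open until a start codon is found, had 1715 and 2849 reads, a log2 fold change of 0.50 (95% interval 0.41 to 0.58), just under the limit of 0.58. Its paralog EIF1B had 399 and 475 reads (0.02) and the ratio of EIF1 to EIF1B differed by 0.48 on the log2 scale (interval 0.27 to 0.69). EIF1AX had 1239 and 1410 reads (-0.05), and EIF5, which makes eIF2 hydrolyse its GTP, had 1162 and 1288 (-0.09). The intervals of EIF1B, EIF1AX and EIF5 held 0. EIF1AY, which is Y-linked and whose level is not given, had the lowest value of this group, with an interval below 0, and was not called.

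The 14 genes of eIF3 were spread around 0, from -0.45 to 0.32. None was called, against 9.16% of all genes called higher and 8.73% called lower. EIF3A, the largest subunit, had 11492 and 16741 reads (log2 fold change 0.31, 95% interval 0.27 to 0.34). EIF3C (8455 and 12318 reads) and its near-identical copy EIF3CL (5534 and 8159 reads) had values of 0.31 and 0.32. They share 98.8% of the 50-base sequences of EIF3C, so the split between them is uncertain. EIF3J, EIF3E and EIF3D, which binds the cap on some mRNAs, followed at 0.27, 0.23 and 0.22. These 6 genes were the higher end of the complex.

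At the lower end of eIF3, EIF3I had 3501 and 3016 reads (log2 fold change -0.45, 95% interval -0.52 to -0.38) and EIF3K had 5432 and 4894 (-0.39). EIF3H and EIF3B were at -0.23 and -0.20, and EIF3G, EIF3F, EIF3L and EIF3M lay between -0.09 and 0.11. The ratio of EIF3A to EIF3I reads went from 3.28 to 5.55, a difference of 0.76 on the log2 scale (interval 0.68 to 0.84). Of the subunits EIF3A, EIF3B, EIF3C, EIF3G and EIF3I, which correspond to the yeast complex, 2 were above 0 and 3 below, and of the 8 subunits with PCI or MPN domains 5 were above 0 and 3 below.

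EIF5A was called lower and had the largest number of reads among the factors called lower. It lies on chromosome 17 from 7306999 to 7312463 on the plus strand and went from 4609 to 3348 reads, or from 342 to 211 CPM (log2 fold change -0.70, 95% interval -0.76 to -0.63). The intronless copy EIF5AL1 had 756 and 562 reads (-0.66) and the pseudogene EIF5AP4 had 1090 and 777 (-0.72). The ratio of EIF5A to EIF5AL1 was 6.10 and 5.96, and EIF5A, EIF5AL1 and the pseudogenes summed to 6459 and 4687 reads (-0.70). The paralog EIF5A2 had 7 and 8 reads, too few to give a direction (interval -1.70 to 1.65). EIF5B, the GTPase that joins the ribosomal subunits, had 4161 and 3744 reads (-0.39), and EIF6, which keeps the large subunit apart, had 1651 and 1729 (-0.17).

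The enzymes that modify these factors were read from a list of 8 genes for hypusine and diphthamide. DHPS, which starts hypusine synthesis on eIF5A, had 750 and 1196 reads (log2 fold change 0.44), and DOHH, which completes it, fell from 286 to 203 reads (-0.73). DPH1 and DPH2, which begin diphthamide on eEF2, were called lower at -0.82 and -0.67. In all, 0 of the 8 genes were called higher, against 9.16% of all genes, and 3 lower (37.5%, against 8.73%). DPH5, DPH6 and DPH7 had values between 0.25 and 0.44.

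Among the elongation factors, EEF2 had the most reads and was not called. Its reads went from 103275 to 153630, or from 7654 to 9666 CPM (log2 fold change 0.34, 95% interval 0.33 to 0.35), and was the fifth gene of the library by reads in Vector and the third in the other. EEF1A1 had 67944 and 75396 reads (-0.09), and the exchange subunits EEF1B2, EEF1D and EEF1G were at -0.18, -0.22 and -0.11. The ratio of EEF2 to EEF1A1 went from 1.52 to 2.04, a difference of 0.42 on the log2 scale (interval 0.40 to 0.44). EEF1A2, the form of eEF1A typical of muscle and neurons, lies on chromosome 20 from 63488013 to 63499315 and fell from 256 to 177 reads (-0.77, interval -1.05 to -0.49).

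Enzymes that act on the elongation factors were described separately. EEF1AKMT3, a lysine methyltransferase of eEF1A on chromosome 12 from 57771492 to 57782798, went from 144 to 64 reads, which is -1.40 on the log2 scale (95% interval -1.85 to -0.97) and -0.68 with FPKM and 1 added. EEF1AKMT1, another such enzyme, fell from 222 to 164 reads (-0.67, interval -0.97 to -0.38), whereas EEF1AKMT2 had 228 and 337 reads (0.33). EEF1AKNMT was at -0.40. EEF2K, the kinase that inhibits eEF2, had 912 and 994 reads (-0.11), and EEF2KMT, which methylates eEF2, had 157 and 162 (-0.19), both with intervals that held 0. EIF4A3, a helicase of the exon junction complex that is named for its likeness to eIF4A, went from 1976 to 1523 reads (-0.61, interval -0.71 to -0.51), and EIF1AD was at -0.53. The noncoding EIF3J-DT had 67 and 82 reads (0.05).

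Many factors share sequence with pseudogenes, and the counting placed a large share of reads on these copies. Of the 63 factors, 28 had at least 5% of the 50-base sequences of their main transcript in another gene. EEF1A1 had 67944 and 75396 reads, while its 39 pseudogenes had 292952 and 339346, mostly EEF1A1P5 with 263799 and 305726. Only 18.8% and 18.2% of the reads of this family were thus counted on EEF1A1 itself, and the summed log2 fold change was -0.04. For EEF1G this share was 35.1% and 36.7%, with a summed value of -0.17 (interval -0.19 to -0.15) against -0.11 alone, and for EIF4E 50.2% and 51.8%. The level of such a gene counted on the gene alone is uncertain.

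Adding the copies moved the values of EIF4B and EIF4A1. The pseudogenes EIF4BP7, EIF4BP6 and EIF4BP3 had log2 fold changes of 0.51, 0.31 and 0.57, and EIF4B with its 9 pseudogenes had 8658 and 22465 reads (1.14, 95% interval 1.10 to 1.18), which was still called. EIF4A1 alone had 3006 and 4626 reads (0.39). The read-through gene SENP3-EIF4A1, with 1555 and 1169 reads, and AC016876.3, with 1399 and 1127, hold 83.0% and 91.7% of its 50-base sequences. Summed with these and with its pseudogenes, EIF4A1 had 7188 and 8398 reads and a log2 fold change of -0.01 (interval -0.06 to 0.03), so the value of EIF4A1 alone is uncertain. EIF4A2, which shares 5.93% of these sequences with other genes, was at 0.12 both alone and summed. EEF2 shares 0% of these sequences with other genes, and the subunits of eIF2B at most 0.170%.

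**Figure D3:**
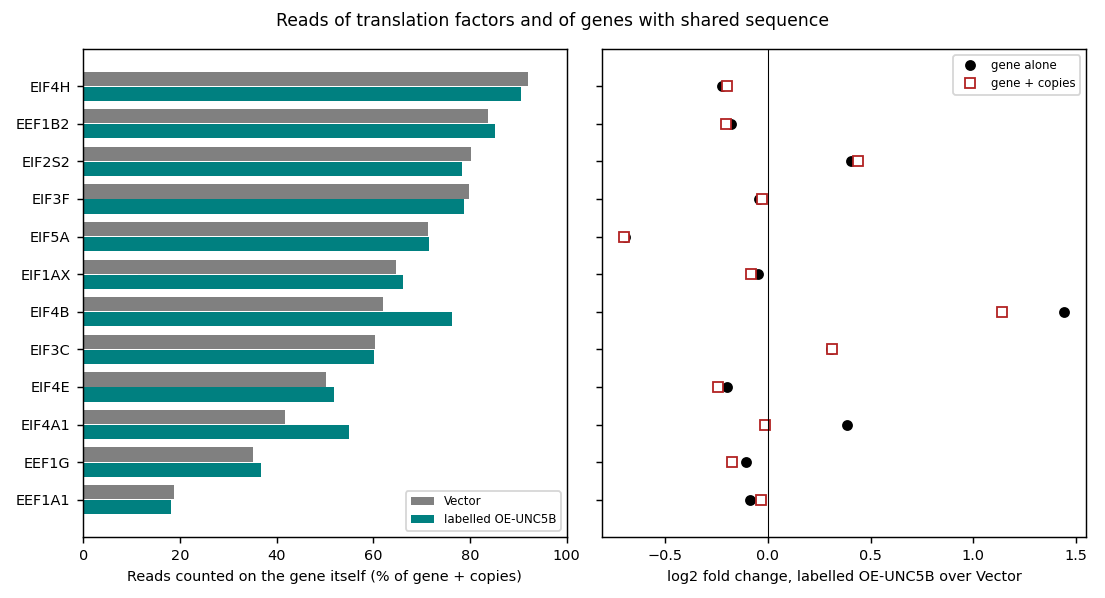
Left, reads counted on the gene itself as a percent of the gene and its copies in each library (bars, 1 library each); right, log2 fold change of the gene alone (black points) and of the gene with its copies (red squares), for factors whose copies held at least 500 reads and 5% of the total in Vector; EIF2S3B, EIF3CL and EIF5AL1, themselves copies of other factors, and EEF1E1-BLOC1S5 are not drawn. Of the genes drawn EEF1A1 has the lowest share, 18.8% in Vector, and EIF4A1 moves from 0.39 to -0.01 when its copies are added.

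Levels were compared between genes only per length, as CPM per kilobase, once with the main transcript and once with all exons of the gene in GENCODE 44. By reads counted on the gene itself, EEF2 was the highest factor on both scales, with 2424 CPM per kilobase of main transcript in Vector and 3061 in the other library, and EEF1A1 followed with 1434 and 1351. This order rests on where the reads were counted, since EEF1A1 with its copies had 360896 and 414742 reads, more than EEF2. Within eIF2 the order was EIF2S3 (151 and 189), EIF2S2 (86.3 and 114) and EIF2S1 (35.5 and 32.0) on both scales, and in eIF2B EIF2B1 (51.5 and 44.4) was above EIF2B2 (8.11 and 6.93). In eIF3 the order depended on the length used. EIF3E came first by main transcript, at 767 and 897, and EIF3L came first by all exons in Vector, at 162.

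The other genes of the pathway were taken from fixed lists. Of the 4 eIF2 kinases, none was called, against 9.16% of all genes called higher and 8.73% called lower. EIF2AK1, EIF2AK2 and EIF2AK3 had log2 fold changes of -0.22, -0.06 and -0.34, and EIF2AK4, which senses uncharged tRNA, had 511 and 744 reads (0.31, 95% interval 0.14 to 0.47). PPP1R15A and PPP1R15B, which direct the phosphatase to eIF2, were at 0.30 and 0.38. Among 8 regulators of eIF4F, 0 were called higher and 1 lower, against 9.16% and 8.73% of all genes. With library totals or DESeq2 size factors 1 was called higher and 0 lower. Of all 15384 genes, 1614 were higher and 1152 lower with library totals, and 1543 and 1195 with DESeq2 size factors. EIF4EBP1, which sequesters eIF4E, had 3471 and 6095 reads (0.58, interval 0.52 to 0.64), just under the limit, and was the one called with the other scalings (0.62 and 0.61), while EIF4EBP2 and EIF4EBP3 were at -0.03 and 0.19. MKNK2, a kinase of eIF4E, went from 880 to 685 reads (-0.60, and -0.55 and -0.56 with the other scalings, not called), and LARP1 had 6441 and 10404 (0.46). Of 9 tested genes of poly(A) binding, termination and recycling and 9 mitochondrial translation factors, 0 were called in either direction, again against 9.16% and 8.73% of all genes, with medians of 0.01 and -0.04, the second of which was 0.0095 with library totals.

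The TOP mRNAs were a list of 10 factors that included EEF1A2. The 10 TOP mRNAs had a median log2 fold change of -0.10, with 3 above 0 and 7 below, and the 51 other tested factors had a median of -0.11. EIF4B, EEF2 and EIF3E were above 0 and the eEF1 genes below, and all belong to the TOP list. The cytosolic ribosomal proteins, which are the largest class of TOP mRNAs, had a median of -0.23 over 80 tested genes, with 10 above 0 and 70 below. Of these, 0 were called higher, against 9.16% of all genes, and 4 lower (5%, against 8.73%). With library totals or DESeq2 size factors 1 was called lower, against 1152 and 1195 of all 15384 genes. The difference between the factors and the ribosomal proteins was not tested, since the libraries have no replicates.

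**Figure D4:**
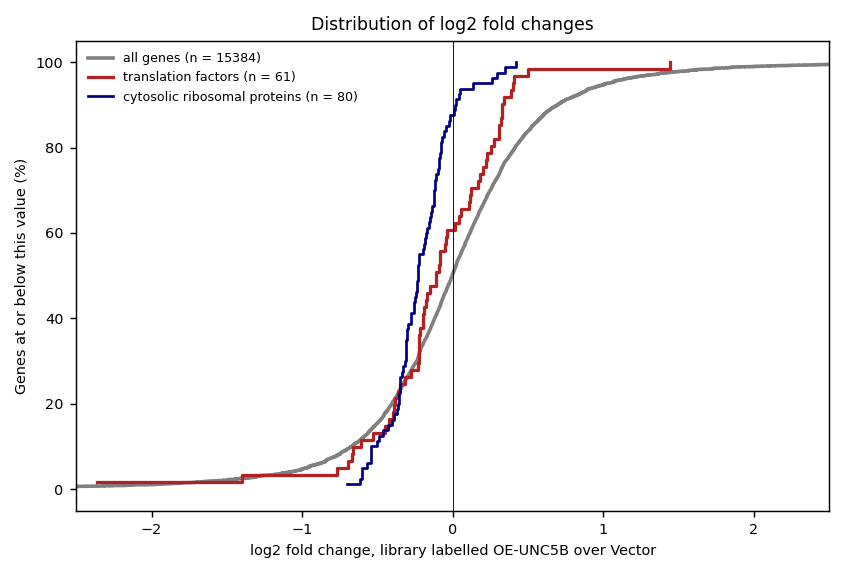
Cumulative share of genes (y axis, percent) by log2 fold change (x axis, library labelled OE-UNC5B over Vector) for all 15384 tested genes, the 61 factors and the 80 tested cytosolic ribosomal proteins. The ribosomal proteins lie mostly to the left of 0 (median -0.23), and around 0 the factors lie between them and all genes (median -0.11); genes beyond 2.5 on either side are outside the axis.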

How the data were processed

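RNA-seq was analysed for 1 Vector library and 1 library labelled OE-UNC5B of MOLM-13 cells. Per the file headers, the authors deposited gene-level raw counts and, beside them, FPKM. The submitters' processing notes name bcl2fastq 2.19, HISAT2 2.0.4, StringTie 1.3.0 and GRCh38, while the counting tool, annotation and use of strand are not given in the sources used here. The length behind the deposited FPKM was a median of 1.45 times the exon length of the factors in GENCODE 44 (0.228 to 3.29 times), so levels were recomputed from counts.

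TMM factors of 0.984 and 1.02 (edgeR 4.0.16 in R 4.3.3) scaled the counts, 0.5 reads were added, and a gene entered with a sum of 10 or more reads. Read intervals follow Clopper and Pearson at 95% (scipy 1.17.1), and intervals of ratios between genes are normal intervals of the log odds ratio. They cover counting error only. No test of the conditions was possible with 1 library per group. Named genes were, for each complex, the called ones, the highest and lowest values and the gene with the highest FPKM, plus UNC5B, called genes of the pathway lists, the eIF2 kinases and the eIF4E-binding proteins; genes outside this rule are given where a complex was described by subunit. The members and lists were chosen with earlier results of these data known. Copies are named pseudogenes and genes sharing at least 5% of 50-base sequences. All 63 factors were found in GENCODE 44. The procedure was tested on simulated data. Also tried were scaling to library totals or by DESeq2 1.42.0, FPKM, other amounts added, other read minimums, folds and member lists. Summing with copies and the other scalings of the pathway lists and intervals were added after seeing the data.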

Additional observations from a re-analysis of the deposited data

Results flagged for a closer look

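The pseudogenes were left out of the factors by their names. Of the 32 pseudogenes with at least 10 reads, 4 had a 95% interval of the reads above 0 (12.5%) and 7 had one below 0 (21.9%), against 25.2% and 26.2% of all genes. The 4 above 0 are given with the reads in Vector first. EIF4BP7 had 2152 and 3607 reads (log2 fold change 0.51), EIF4BP6 had 1016 and 1482 (0.31), EIF4BP3 had 124 and 217 (0.57), and EIF2S2P4 had 728 and 1266 (0.56). EIF4B and EIF2S2, whose sequence they share, were at 1.44 and 0.41. Those below 0 were EEF1B2P6, EEF1B2P3, EIF5AP4, EEF1A1P13, EEF1A1P5, EIF4EP2 and EEF1GP5, from -0.75 (EEF1GP5) to -0.02 (EEF1A1P5). Whether these reads came from the pseudogenes or from their parent genes was not tested.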

How the results depend on the processing

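No paired analysis was possible because each group had 1 library, and for the same reason no replicate could be left out. The count of 1 factor called higher held under every alternative run except a limit at a ratio 25% above equality. That limit gave 8 higher and 15 lower factors, against 17.4% and 17.7% of all genes. The number called lower was 7 of 61, and it was 2 at a fold of 2 and 4 of 58 with FPKM and 1 added. It was 4 of 52 with the complex lists alone, which leave out the modifiers, EIF4A3, EIF1AD and EIF3J-DT. Over all genes 1343 of 15384 were called lower, 567 at a fold of 2 and 561 of 11564 with FPKM and 1 added. By construction a lower fold gives more genes and a higher fold fewer, and adding 1 to FPKM shrinks the change of low values. EIF5AL1 and EEF1AKMT1 were called with 0.1 added to FPKM and not with 1 added. EEF1AKMT3 moved from -1.40 to -1.23 with 0.1 added and to -0.68 with 1 added. EIF4A3 was lost in both FPKM runs (-0.56 and -0.53), and also with library totals and DESeq2 size factors. The number called lower was 6 with library totals, with DESeq2 size factors and summed with copies (where EIF2S3B takes the value of EIF2S3). It was 6 of 58 with FPKM and 0.1 added, and 5 of 56 without near-identical copies. Over all genes it was 1152 of 15384 with library totals, 1195 with DESeq2 size factors and 927 of 11564 with FPKM and 0.1 added. The median log2 fold change of the factors lay between -0.11 and -0.06 under the alternatives that give one. Other scalings moved log2 fold changes by 0.047 (library totals) and 0.035 (DESeq2), and with library totals 1614 genes were called higher and 1152 lower over all genes. Library totals changed the sign of EIF3F and EIF5A2, both near 0, and FPKM that of EIF3F. For EIF2S3B (-2.36) the sum with copies was 0.26, which by construction is nearly all EIF2S3 and says nothing of EIF2S3B. Summed with copies and pseudogenes, EIF4A1 went from 0.39 to -0.01 and EIF5A2 to 0.51 at 7 and 12 reads. Depth limits EIF5A2, whose interval was the widest of the factors at 3.35 on the log2 scale.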

Other observations

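Across the 61 tested factors, the log2 fold change had a Spearman correlation of -0.22 with the GC content of the main transcript and of 0.22 with its length. Over 15198 genes with a transcript sequence these were -0.18 and 0.20. They are descriptions across genes of the same pair of libraries, which share depth and scaling.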
